A study of Mus musculus with 8 samples.

Results

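The response of MATIP cells to 4-hydroxytamoxifen (4-OHT) was measured by RNA sequencing across all genes of the deposited count table. MATIP cells are mouse bone marrow cells of the strain C57BL/6 that carry MLL-AF10, both alleles of Tip60 (gene symbol Kat5) floxed, and Cre-ERT2, a recombinase that acts on floxed DNA once 4-OHT is bound. The members are 4 of the 8 samples of the series, chosen by their labels: 2 MATIP libraries treated for 4 days with 100 nM 4-OHT and 2 treated for 4 days with ethanol (EtOH), the solvent. The other 4 samples are MAflox cells, described by the submitters as MLL-AF10 flox cells, with the same treatments and the same number of libraries per group. They are used here only to test whether a response differed between the lines. All cells grew in a methylcellulose medium with SCF, IL-3 and GM-CSF. No label names the floxed exons, or says whether MATIP cells are 1 clone, or whether MAflox cells carry Cre-ERT2, and the series holds no MATIP cells without Cre. The MATIP libraries therefore compare 4-OHT with solvent in cells able to lose Kat5, and Kat5 loss and 4-OHT itself cannot be told apart within them.

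TIP60 is a histone acetyltransferase of the MYST family. It works in a large complex with the scaffold proteins TRRAP and EP400, which acetylates histones H4 and H2A and exchanges H2A.Z at promoters, and it has roles in transcription and in the response to DNA breaks. MLL-AF10 joins the amino-terminal part of the histone methyltransferase MLL (gene Kmt2a) to AF10 (gene Mllt10), a partner of the methyltransferase DOT1L. In blood progenitors such fusions keep HOXA genes and MEIS1 active and hold the cells in an immature, dividing myeloid state. When myeloid progenitors mature they leave the cell cycle, lower protein synthesis and make the granule, lysosomal and surface proteins of neutrophils or macrophages.

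The MATIP libraries held 44122439 to 57312490 gene counts. Library values are CPM, counts scaled to a common library size with TMM factors, given in the order of replicate 1 and replicate 2. Log2 changes are 4-OHT over EtOH with the standard error of an edgeR quasi-likelihood fit to all 8 libraries. A gene is said to rise or fall where its p, adjusted by Benjamini-Hochberg over 13722 tested genes, was under 0.05. Of these genes 1182 reached the count minimum in fewer than 2 of the 4 EtOH libraries of both lines and so passed only with the help of 4-OHT libraries, which left them little room to fall. Where a list held many such genes, its count is given for the other members, against 4272 of the other 12540 tested genes that rose (34.1%). With 4-OHT 4548 of the 13722 tested genes rose in MAflox cells (33.1%) and 4399 fell (32.1%). List counts for MAflox cells stand against these shares. Replicates of MATIP cells differed by a median of 0.0864 on the log2 scale with EtOH and of 0.0866 with 4-OHT. The labels do not say that replicates came from separate cultures, so the p-values measure only how these libraries differ, and that spread may be technical. Counts from a mixed population cannot separate a change in every cell from a change in how many cells of a kind were present.

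Kat5 transcripts fell in MATIP cells. Kat5 was at 41.1 and 41.2 CPM in the EtOH libraries and at 8.11 and 8.32 CPM in the 4-OHT libraries, so the groups lay far apart. The log2 change was −2.32 ± 0.09, a 5.01-fold fall (edgeR quasi-likelihood, adjusted p = 6.99e-15). Counts were left in both 4-OHT libraries, and the data do not separate transcripts of the recombined allele from those of cells that kept it. In MAflox cells Kat5 rose by 0.50 on the log2 scale, and the response of MATIP cells minus that of MAflox cells was −2.82 ± 0.11. Kat5 lies on chromosome 19 at 5603014 to 5610237 (mm10) and shares 426 exon bases with Rnaseh2c, a subunit of RNase H2 encoded on the opposite strand. Rnaseh2c itself fell by 0.27 on the log2 scale. No other tested gene within 100 kb fell. The kinase gene Map3k11 rose by 0.35 ± 0.06 and the sorting nexin gene Snx32, at a few CPM, by 1.24 ± 0.21.

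**Figure D1:**
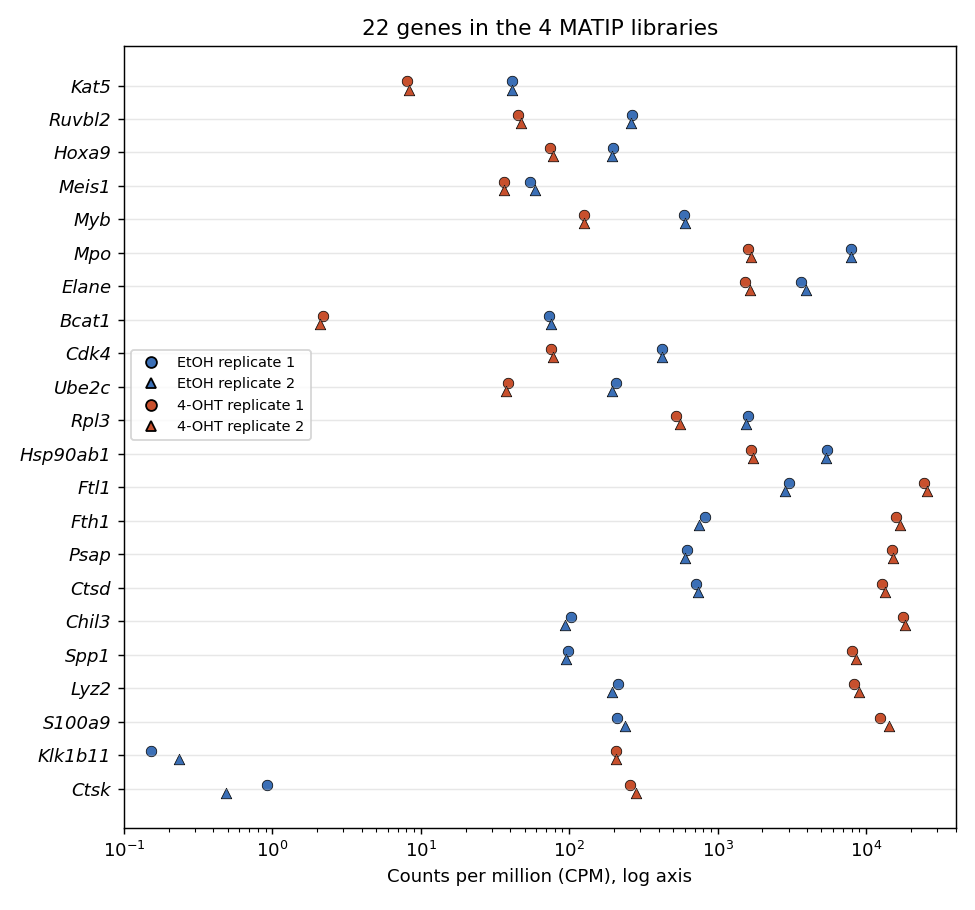
CPM (log axis) of 22 genes in each MATIP library. Circles are replicate 1 and triangles replicate 2, blue for EtOH and red for 4-OHT. Replicates of a group nearly coincide, and the groups do not overlap for any gene shown. Kat5 went from about 41.1 to 8.11 CPM in replicate 1, while Ftl1, Psap and Chil3 rose.

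Many other genes listed for the TIP60 complex also fell. The list holds its subunits and the genes H2afz and H2afv of H2A.Z, the histone that it exchanges. Of 20 tested members 14 fell and 5 rose, with a median log2 change of −0.64, against 38.6% of all tested genes that fell, 37.5% that rose and a median of 0.00. Kat5, H2afz and H2afv are themselves among the falls. In MAflox cells, where Kat5 rose, 11 of the 20 fell and 5 rose (median −0.18), against 32.1% and 33.1% of all tested genes in that line. The AAA ATPases Ruvbl1 and Ruvbl2, which form the ring at the core of several chromatin remodellers, fell clearly too. Ruvbl2 was at 263 and 261 CPM with EtOH and 45 and 47.1 CPM with 4-OHT, log2 −2.51 ± 0.06, and Ruvbl1 changed by −1.83 ± 0.07. The H2A.Z gene H2afz fell by 0.92, Morf4l2 by 1.37 and Mrgbp by 1.26 on the log2 scale. The scaffold genes did not follow. Trrap rose by 0.54 ± 0.09 and the enhancer of polycomb gene Epc1 by 0.81 ± 0.09, while Ep400, at 0.16 ± 0.07, did not pass but did in several other settings, such as DESeq2 (log2 0.23, adjusted p = 0.00654). Scaled by library size alone, 2 members rose in place of 5, and the same count of 2 was found without MATIP EtOH replicate 2.

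Among 14 other histone acetyltransferase genes 4 rose and 5 fell, with a median of −0.11. The falls included Kat2a, the GCN5 subunit of SAGA (log2 −1.59 ± 0.07), and the type B enzyme Hat1 (−1.09 ± 0.06). The rises were small: the nuclear receptor coactivators Ncoa3 (0.87 ± 0.07) and Ncoa1 (0.86 ± 0.08), and the MOZ family genes Kat6a (0.26 ± 0.09) and Kat6b (0.40 ± 0.12). Neither MOZ family call held without MATIP 4-OHT replicate 1 (adjusted p = 0.130 for Kat6a and 0.0514 for Kat6b). Ep300, a coactivator shared by many pathways, was at 107 and 118 CPM with EtOH and at 129 and 113 CPM with 4-OHT, and the groups overlapped. No gene of the list rose to the extent that Kat5 fell.

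Genes of the fusion partners and their cofactors moved both ways, with 5 of 17 higher, 8 lower and a median of −0.22. Kmt2a was at 38.9 and 43.2 CPM with EtOH and 61.4 and 46.8 CPM with 4-OHT, a rise of 0.40 ± 0.15 (edgeR quasi-likelihood, adjusted p = 0.0207). That call did not hold with library size alone (adjusted p = 0.133), with DESeq2 (adjusted p = 0.120), or once either first replicate was left out of edgeR (adjusted p = 0.0948 for EtOH, and log2 0.23, adjusted p = 0.252, for 4-OHT). Mllt10 fell by 0.90 on the log2 scale, from 86.7 and 90.2 CPM to 48.1 and 46.5 CPM. Counts per gene do not separate transcripts of the fusion from those of the intact genes. Dpy30, a shared subunit of the MLL-type methyltransferases, fell from 121 and 119 CPM to 34.3 and 34.2 CPM, log2 −1.81 ± 0.06. Men1, which encodes menin, had −1.15 ± 0.07 and Ash2l −0.92 ± 0.06. Aff1, of the super elongation complex, rose by 0.66 ± 0.06 and Mllt3 by 1.11 ± 0.12.

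Over the whole transcriptome the response was broad and lopsided. Of the 13722 tested genes 10441 (76.1%) changed, 5144 up (37.5%) and 5297 down (38.6%). Rises and falls were about as many, but rises were larger. The median of the genes that rose was 1.40 on the log2 scale and that of the genes that fell −0.79. At least 2-fold rises numbered 3103 (22.6%) against 1937 falls (14.1%), and 859 genes rose at least 16-fold against 26 that fell as far. Genes under 1 CPM with EtOH and at 10 CPM or more with 4-OHT numbered 126, and only 3, Bhlha15, Ccdc116 and Rpph1, went the other way. The 4-OHT libraries of MATIP cells lay wholly above the EtOH libraries for 44.2% of tested genes and wholly below for 44.2%.

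**Figure D2:**
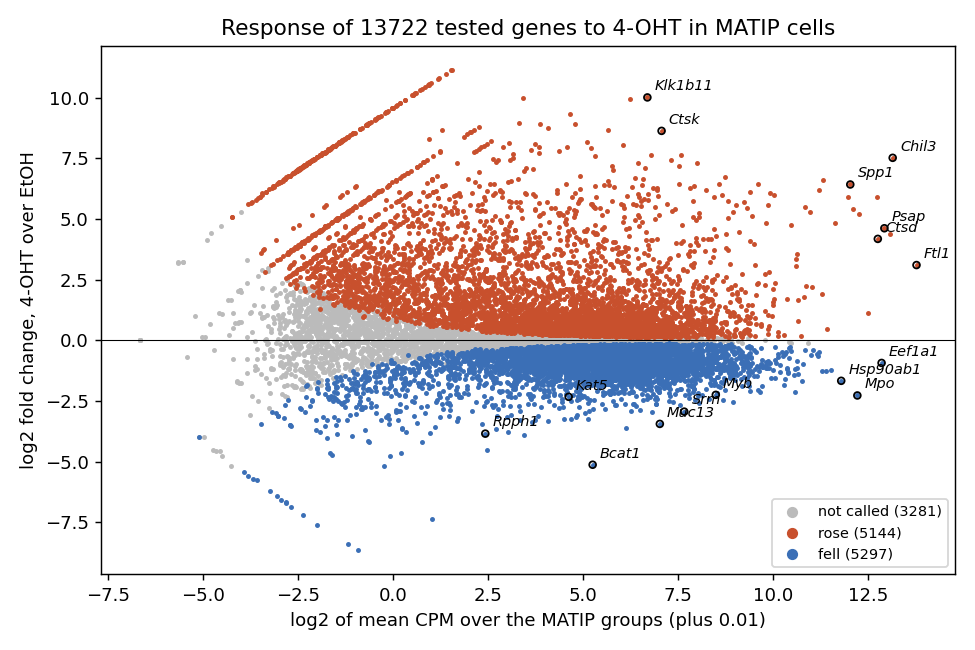
Log2 fold change of 4-OHT over EtOH against the log2 of mean CPM, 1 point per tested gene in MATIP cells. Red points rose (5144), blue points fell (5297) and grey points were not called (3281). The cloud reaches further up than down, and the diagonal lines of points at the left are genes with few or no counts in 1 group.

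The make-up of the RNA changed with it. Genes that rose at least 2-fold took 6.14% and 6.45% of all counts in the EtOH libraries and 38.1% and 38.4% in the 4-OHT libraries. Genes that fell at least 2-fold went from 29.8% and 29.0% of counts to 9.92% and 10.1%. With EtOH the largest shares belonged to the elongation factor Eef1a1, at 1.0% and 1.02% of counts, and to myeloperoxidase, Mpo, at 0.815% and 0.828%. With 4-OHT they belonged to ferritin light chain, Ftl1, at 2.36% and 2.40%, and to Chil3, a chitinase-like protein of myeloid cells, at 1.71% and 1.72%. Chil3 had held 0.0107% and 0.00978% with EtOH. The ferritin heavy chain Fth1, the saposin precursor Psap, the protease Ctsd, the calprotectin subunits S100a8 and S100a9, lysozyme Lyz2 and osteopontin Spp1 were also among the 10 largest shares with 4-OHT.

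The largest rises among genes with a mean of at least 5 CPM were in secreted and surface proteins. Klk1b11, a kallikrein, was at 0.152 and 0.234 CPM with EtOH and 208 and 207 CPM with 4-OHT, log2 10.01 ± 0.13. Prl2c5, of the prolactin family, went from 0.0870 and 0.201 CPM to 148 and 153 CPM (9.94 ± 0.23), and Ctsk, the cathepsin of bone resorption, from 0.913 and 0.486 CPM to 256 and 281 CPM (8.63 ± 0.13). Klk1b11 lies on chromosome 7 at 43995877 to 43999875 and Prl2c5 on chromosome 13 at 13182715 to 13191923 (mm10). All 3 genes were below 1 CPM in both EtOH libraries, and the groups lay far apart. Further rises were those of the potassium channel gene Kcnn3 (9.33 ± 0.25), the chemokine Cxcl3 (8.67 ± 0.15), the collagenase-like Mmp27 (8.21 ± 0.44), the activating receptor Tarm1 (8.17 ± 0.17) and the platelet chemokine Ppbp (8.13 ± 0.35). Kcnn3, Mmp27 and Ppbp rest on 8, 4 and 6 counts over the EtOH libraries, so their sizes are uncertain.

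Among genes with a mean of at least 5 CPM, the largest falls were led by a metabolic enzyme. Bcat1, the cytosolic aminotransferase of branched-chain amino acids, was at 73.5 and 75.2 CPM with EtOH and 2.18 and 2.09 CPM with 4-OHT, log2 −5.12 ± 0.10, a 34.8-fold fall. It lies on chromosome 6 at 144993835 to 145076184 (mm10, minus strand). Choline dehydrogenase, Chdh, went from 135 and 123 CPM to 10.3 and 10.6 CPM (−3.63 ± 0.08), and the transmembrane mucin Muc13 went from 236 and 241 CPM to 23.4 and 20.6 CPM (−3.44 ± 0.07). For these 3 genes both 4-OHT libraries lay far below both EtOH libraries. Other large falls were those of the secretory factor Bhlha15 (−4.50 ± 0.23), the small nucleolar RNA host Snhg4 (−3.77 ± 0.17), the sphingosine receptor S1pr3 (−3.36 ± 0.13), the sialyltransferase St8sia5 (−3.30 ± 0.15), the carbonic anhydrase Car12 (−3.28 ± 0.15) and the guanine exchange factor Fgd2 (−3.27 ± 0.12). St8sia5 and Fgd2 rose in MAflox cells (by 0.58 and 0.21), with differences of −3.89 ± 0.22 and −3.48 ± 0.15.

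Promoter sequences are shown for 6 genes of groups that moved together, to place the known binding letters of the factors of each group beside the response. The sequences are the 250 bases before the RefSeq start (GRCm38.p6, the assembly of mm10), on the strand of the gene, with motif matches in capitals. Cdc6, which loads the replicative helicase, and Mcm6, a subunit of it, hold the E2F core (TTTGGCGC or TTTCCCGC on either strand) and stand for the replication genes. Nop2, a ribosomal RNA methyltransferase, holds an E-box (CACGTG), the site of MYC and MAX. Ctsd, the lysosomal aspartic protease, holds the CLEAR core (TCACGTGA), read by TFEB and overlapping the E-box. Isg15 and Ifit3, interferon-induced genes, hold the core of the interferon-stimulated response element (GAAANNGAA).
Cdc6, chr11:98907901-98908150, plus strand, E2F core: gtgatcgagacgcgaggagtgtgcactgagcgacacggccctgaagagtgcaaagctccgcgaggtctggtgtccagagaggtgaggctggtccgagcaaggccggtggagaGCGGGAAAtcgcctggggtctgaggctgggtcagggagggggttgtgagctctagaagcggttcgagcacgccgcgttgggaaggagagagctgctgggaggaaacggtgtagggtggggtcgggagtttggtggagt
Mcm6, chr1:128359706-128359955, minus strand, E2F core: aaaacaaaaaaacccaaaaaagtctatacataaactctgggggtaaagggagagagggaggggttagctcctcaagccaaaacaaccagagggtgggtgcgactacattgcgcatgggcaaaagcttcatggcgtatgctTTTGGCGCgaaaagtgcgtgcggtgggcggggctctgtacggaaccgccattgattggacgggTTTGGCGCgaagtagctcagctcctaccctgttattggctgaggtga
Nop2, chr6:125131633-125131882, plus strand, E-box: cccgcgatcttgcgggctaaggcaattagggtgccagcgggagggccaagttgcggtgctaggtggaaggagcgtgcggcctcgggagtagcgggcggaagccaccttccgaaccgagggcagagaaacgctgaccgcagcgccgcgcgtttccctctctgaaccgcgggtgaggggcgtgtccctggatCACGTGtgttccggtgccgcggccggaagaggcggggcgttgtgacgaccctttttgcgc
Ctsd, chr7:142387828-142388077, minus strand, CLEAR core: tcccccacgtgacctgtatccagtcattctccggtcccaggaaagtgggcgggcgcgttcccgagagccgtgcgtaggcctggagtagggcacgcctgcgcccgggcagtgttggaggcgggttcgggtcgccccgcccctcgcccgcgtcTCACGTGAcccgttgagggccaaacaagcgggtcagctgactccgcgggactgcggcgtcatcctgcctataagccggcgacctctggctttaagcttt
Isg15, chr4:156200819-156201068, minus strand, ISRE core: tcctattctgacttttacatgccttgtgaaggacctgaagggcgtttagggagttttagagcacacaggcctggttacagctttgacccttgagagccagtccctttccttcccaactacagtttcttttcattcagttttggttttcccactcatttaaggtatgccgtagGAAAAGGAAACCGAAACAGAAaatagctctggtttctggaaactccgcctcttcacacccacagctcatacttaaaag
Ifit3, chr19:34583279-34583528, plus strand, ISRE core: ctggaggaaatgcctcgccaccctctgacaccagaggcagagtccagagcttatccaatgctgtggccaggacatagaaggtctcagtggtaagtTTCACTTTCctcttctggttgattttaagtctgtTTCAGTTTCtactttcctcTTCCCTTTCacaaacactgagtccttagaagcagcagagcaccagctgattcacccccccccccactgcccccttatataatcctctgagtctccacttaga
The log2 responses of these genes in MATIP cells were −1.79 ± 0.06 for Cdc6, −1.10 ± 0.05 for Mcm6, −2.04 ± 0.06 for Nop2, 4.18 ± 0.06 for Ctsd, 4.75 ± 0.57 for Isg15 and 5.69 ± 0.91 for Ifit3. Ifit3 had 4 counts over the EtOH libraries and 193 over the 4-OHT libraries.

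Shares of promoters with each motif were counted over windows that also hold 50 bases after the start. The E2F core was in 10 of 24 promoters of tested S phase genes (41.7%), against 1.63% of 27025 promoters of all genes and 3.02% of 10391 promoters of tested genes. The ISRE core was in 12 of 19 interferon response promoters (63.2%), against 8.57% of all and 7.37% of tested genes. The CLEAR core was in 5 of 38 lysosome promoters (13.2%), against 1.01% of all and 1.91% of tested genes. An E-box was in 6 of 28 ribosome biogenesis promoters (21.4%) and 11 of 38 lysosome promoters (28.9%), against 7.24% of all and 9.99% of tested genes. Within most groups, genes with and without the motif moved alike. The median log2 response of S phase genes was −1.23 for the 10 with the E2F core and −1.05 for the 14 without it. For the CLEAR core among lysosomal genes it was 0.82 with and 0.91 without, and for the E-box in ribosome biogenesis it was −1.64 with and −1.91 without. Interferon genes had 4.08 with the ISRE core (12 genes) and 0.56 without (7 genes), and 2 of those with it, Gbp3 and Bst2, fell. Of the 24 tested interferon genes 6 passed the filter only with 4-OHT libraries, and all 6 rose. The split by motif was not made without them, so no link between the ISRE core and the response is read from it. A match is a description of letters and says nothing of binding in these cells.

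Targets of MLL fusions fell in 19 of 28 tested genes and rose in 4, with a median of −1.17. The HOXA cluster moved as a block: of 10 tested HOXA genes in the list 9 fell and Hoxa2, at −0.58 ± 0.43, did not pass. Hoxa9, a homeobox gene that sustains leukaemic self-renewal, was at 198 and 193 CPM with EtOH and 74.3 and 77.3 CPM with 4-OHT, log2 −1.37 ± 0.06. Hoxa10 had −1.18 ± 0.06 and Hoxa7 −1.62 ± 0.09. Meis1, the cofactor of HOXA9, fell less, from 54.5 and 58.6 CPM to 36.6 and 36.6 CPM (−0.63 ± 0.07). Myb, a transcription factor needed by MLL-rearranged cells, had the largest fall of the list, from 593 and 600.3 CPM to 126 and 126 CPM (−2.24 ± 0.05). Mef2c fell by 1.63 and the cyclin-dependent kinase gene Cdk6 by 1.25 on the log2 scale.

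Some targets went against the list. Zeb2, a zinc-finger repressor, rose from 106 and 98.4 CPM to 237 and 215 CPM (1.15 ± 0.08), and Igf2bp2, an RNA-binding protein, rose by 3.40 ± 0.28. Pbx3 and Jmjd1c rose by 0.28 and 0.19, and neither call held with library size alone or without MATIP EtOH replicate 1, which left 2 rises in place of 4. Mecom had 0 counts in both MATIP groups. In MAflox cells 25 of these 28 genes fell (median −1.53), against 32.1% of all tested genes in that line. The difference of responses was higher in MATIP cells for 14 genes and lower for 3. The differences were 1.61 ± 0.11 for Meis1, 2.63 ± 0.11 for Zeb2, −1.60 ± 0.07 for Myb and −0.23 ± 0.08 for Hoxa9. The call for Hoxa9 did not hold with DESeq2 (Hoxa9 difference −0.15, adjusted p = 0.124) or in edgeR without MATIP EtOH replicate 1, MATIP 4-OHT replicate 1, MAflox EtOH replicate 2 or either MAflox 4-OHT replicate.

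Progenitor genes were mixed, with 7 of 17 tested members higher, 6 lower and a median of 0.17, counts near the 37.5% and 38.6% of all tested genes. Cd34, a surface marker of progenitors, fell by 1.83, the RNA-binding protein gene Msi2 by 2.07 and Lmo2 by 1.22 on the log2 scale. Against these, Kit, the SCF receptor, rose from 106 and 95.9 CPM to 178 and 174 CPM (0.80 ± 0.06) and Cd93 from 251 and 266 CPM to 859 and 813 CPM (1.69 ± 0.06). Gfi1b, a transcriptional repressor that acts within the erythroid and megakaryocyte lineages, rose by 2.18 ± 0.46.

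Transcription factors of the myeloid lineage, without 5 that passed only with 4-OHT libraries, rose in 17 of 24 and fell in 3 (median 1.72). Among the largest rises of all 29 were the orphan receptor Nr4a3 (8.10 ± 0.34) and Maf (6.94 ± 0.37), a factor of macrophages, which rest on 10 and 8 EtOH counts. Several factors with more counts also rose. Klf4, a driver of monocytes, went from 5.24 and 3.48 CPM to 62.7 and 67.2 CPM (3.92 ± 0.13), and Id2 from 5.28 and 7.67 CPM to 106 and 109 CPM (4.04 ± 0.11). Cebpb went from 249 and 270.3 CPM to 789 and 852 CPM (1.66 ± 0.07), Egr1 rose by 5.48 ± 0.23 and the liver X receptor Nr1h3 by 3.53 ± 0.15. Spi1, which encodes PU.1, a master regulator of myeloid cells, rose by 0.82 ± 0.05. The 3 falls were those of Tfec (−0.30) and of Cebpa and Gfi1, factors of early granulocytes, by 0.58 and 1.10 on the log2 scale, and Cebpe, the factor of secondary granules, was at 0.10 ± 0.08 and did not pass. Cebpe did pass in DESeq2 (0.17, adjusted p = 0.0455) and without MATIP EtOH replicate 2 (0.21), and was at −0.04 with library size alone. In MAflox cells the response of Gfi1 was 0.91 and that of Cebpe 2.74, with differences of −2.01 ± 0.08 and −2.65 ± 0.11.

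AP-1 and immediate-early genes, without 3 that passed only with 4-OHT libraries, rose in 14 of 15 and 1, Batf, fell, with a median of 2.47. Klf6 went from 32.1 and 34.6 CPM to 608 and 588 CPM (4.16 ± 0.07) and Zfp36, which destabilises cytokine messages, from 27.2 and 25.8 CPM to 148 and 145 CPM (2.47 ± 0.07). Fos rose by 4.59 ± 0.14, Jun by 3.25 ± 0.11, Atf3 by 4.52 ± 0.15 and the phosphatase gene Dusp1 by 3.61 ± 0.13.

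Receptors of myeloid growth factors, without 2 that passed only with 4-OHT libraries, rose in 12 of 15 and fell in 2, with a median of 0.98. The common beta chain Csf2rb, shared by the receptors for the IL-3 and GM-CSF in the medium, went from 225 and 255 CPM to 1681 and 1669 CPM (2.80 ± 0.07), and its mouse copy Csf2rb2 rose by 2.67 ± 0.08. Csf1r, the receptor of macrophage colony-stimulating factor, rose by 2.89 ± 0.12 and Csf3r, that of the granulocyte factor, by 2.12 ± 0.07. Flt3 and Ifngr1 fell by 1.89 and 0.82 on the log2 scale.

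Genes of monocytes and macrophages rose in 23 of 25 tested members of 28 listed and fell in 1, Apoe, with a median log2 change of 4.41. Their summed level went from 2004 and 2200.4 CPM in the EtOH libraries to 31436 and 32648 CPM in the 4-OHT libraries. Spp1 was at 97.7 and 95.7 CPM with EtOH and 8083 and 8509.6 CPM with 4-OHT (6.42 ± 0.09), and Lyz2 at 214 and 194 CPM and 8320.1 and 8936 CPM (5.40 ± 0.07). The scavenger receptor gene Msr1 rose by 5.97 ± 0.08, Gpnmb by 6.63 ± 0.12, the mannose receptor Mrc1 by 5.33 ± 0.11, Adgre1 (F4/80) by 4.18 ± 0.08 and Cd14, a coreceptor for bacterial lipopolysaccharide, by 2.39 ± 0.09. Ccr2, the chemokine receptor of blood monocytes, rose by 0.92 ± 0.07. The complement genes of tissue macrophages were at or near 0: over 8 libraries C1qa had 0 counts, C1qb 28 and C1qc 18.

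Genes of lipid handling and of osteoclasts, the macrophage relatives that resorb bone, rose beside them. Of 22 lipid-handling genes 19 rose and 2 fell (median 3.02). The cholesterol exporter Abcg1 went from 29.8 and 27.9 CPM to 1272 and 1245 CPM (5.45 ± 0.07), and Cd36 (6.05 ± 0.09), lipoprotein lipase Lpl (4.46 ± 0.10), Lgals3 (5.50 ± 0.10) and the lipid droplet protein Plin2 (3.34 ± 0.08) rose. Apoe, another major lipid carrier of macrophages, fell from 5.18 and 4.25 CPM to 1.75 and 1.32 CPM. Of 14 tested osteoclast genes of 17 listed, 3 passed only with 4-OHT libraries, and of the other 11 members 9 rose and 1 fell (median 1.30). The fall, of the signalling adaptor Traf6 (−0.19 ± 0.07), did not hold under DESeq2 (adjusted p = 0.169), with DESeq2 size factors, with the filter of 1 CPM, or without MATIP EtOH replicate 2 or either MATIP 4-OHT replicate. Ctsk was at 0.913 and 0.486 CPM with EtOH and 256 and 281 CPM with 4-OHT, and the proton pump subunit Atp6v0d2 at 6.22 and 5.21 CPM and 449 and 440.3 CPM (6.29 ± 0.09). The gelatinase gene Mmp9, also a neutrophil granule protein, rose by 7.64 ± 0.10. Defining genes of the osteoclast itself were mixed. The integrin chain Itgb3 went from 6.35 and 6.38 CPM to 54.5 and 52 CPM (3.06 ± 0.10), and the fusion gene Dcstamp rose by 2.65 ± 0.76 but stayed under 1 CPM, a call that did not hold without MATIP 4-OHT replicate 2 (adjusted p = 0.0551). Tartrate-resistant phosphatase Acp5 was at 4.68 and 3.99 CPM with EtOH and 3.82 and 4.79 CPM with 4-OHT and did not pass, Calcr had 0 counts and Ocstamp 4 counts over 8 libraries.

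Lysosomal genes rose almost without exception: 46 of 48 tested members rose and 2 fell, with a median of 0.91. Psap went from 620.4 and 601 CPM to 14884 and 15150.2 CPM (4.62 ± 0.07) and Ctsd from 713 and 735 CPM to 12865 and 13424 CPM (4.18 ± 0.06). Other proteases rose several fold, such as Ctsb (3.56 ± 0.06) and Ctss (3.69 ± 0.10), as did the lipase Lipa (2.61 ± 0.06) and the cholesterol transporter Npc1 (2.09 ± 0.06). Most other enzymes, membrane proteins and proton pump subunits rose by less, including Lamp1 (1.04 ± 0.05), Atp6v1a (0.53 ± 0.06) and Lamp2 (0.46 ± 0.06). The 2 falls were the glycosidases Gusb (−0.66 ± 0.06) and Gaa (−0.47 ± 0.07). Summed over the list, the level went from 8060.0 and 8063 CPM to 42928 and 44071 CPM. Of the MiT family of lysosomal regulators, Mitf rose by 1.79 ± 0.11, Tfeb by 1.54 ± 0.10 and Tfe3 by 0.91 ± 0.08, while Tfec fell (−0.30 ± 0.06). Of the autophagy genes 14 of 20 rose and 4 fell (median 0.48), with the receptor Sqstm1 at 2.73 ± 0.06.

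Genes of mature neutrophils rose in all 24 tested members of 25 listed, with a median of 5.94, and their summed level went from 952 and 1097 CPM to 56109.8 and 60371 CPM. S100a9 was at 211 and 239 CPM with EtOH and 12449.7 and 14359.6 CPM with 4-OHT (5.90 ± 0.09), Chil3 at 103 and 93.8 CPM and 17851 and 18328 CPM (7.52 ± 0.10). The collagenase Mmp8 of secondary granules rose by 6.09 ± 0.07, the formyl peptide receptor Fpr2 by 6.30 ± 0.09, Lcn2 by 5.98 ± 0.11 and Ltf, lactoferrin, by 6.45 ± 0.10. Camp, the cathelicidin peptide of the same granules, rose by less, from 19.1 and 20.8 CPM to 162 and 189 CPM (3.13 ± 0.08). The rise was smaller than in MAflox cells for 14 of the 24 genes and larger for 6. The difference was −5.56 ± 0.12 for Camp and −2.71 ± 0.11 for S100a9, but 3.88 ± 0.08 for Mmp8 and 1.97 ± 0.11 for Chil3. Stfa genes have near-identical copies, and how shared reads were counted is not given, so single values of that family are uncertain.

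Primary granule genes, made earlier in neutrophil development, went the other way, with 9 of 12 tested members lower, 3 higher and a median of −1.24. Mpo went from 7866 and 7949.7 CPM to 1594 and 1688 CPM (−2.27 ± 0.05) and Elane, neutrophil elastase, from 3639.6 and 3943 CPM to 1539 and 1658 CPM (−1.25 ± 0.06). Prtn3 fell by 1.15, Ctsg by 1.58 and Prss57 by 1.96 on the log2 scale. Fcnb, a ficolin, rose by 1.43 ± 0.16. In MAflox cells 8 of the 12 rose, and the difference was lower in MATIP cells for 11 and higher for 1. It was −2.45 ± 0.08 for Elane and −3.16 ± 0.11 for Prss57. Of 7 phagocyte oxidase genes 6 rose (median 0.74), led by the catalytic subunit Cybb (5.12 ± 0.11).

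Markers of other cell types were low or mixed. Of 22 mast cell and basophil genes 16 were tested, 7 of them only with 4-OHT libraries, and of the other 9 members 6 rose and 2 fell (median 0.95). The summed level of the list went from 612 and 621 CPM to 1923 and 2024 CPM. Mast cell proteases were near 0: over 8 libraries Tpsab1 had 0 counts, Mcpt4 1, Mcpt1 2 and Fcer1a 14. The basophil protease Mcpt8 (−1.13) and Ms4a2, the beta chain of the IgE receptor (−2.24), fell. Alox5, also a neutrophil and macrophage enzyme, rose by 4.02 ± 0.10. Il4 had 0 EtOH counts and 166 counts with 4-OHT, at least 63.0-fold higher with 0 set to 3 counts per group. Of 10 tested eosinophil genes 6 passed only with 4-OHT libraries, and 2 of the other 4 rose. The summed level of all 10 tested genes was only 4.57 and 4.62 CPM with EtOH and 36.7 and 39.1 CPM with 4-OHT. The eosinophil peroxidase gene Epx had 0 EtOH and 4 4-OHT counts.

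Of 16 dendritic cell genes 12 were tested, 7 of them only with 4-OHT libraries, and of the other 5 members 1 rose and 3 fell (median −0.48). The summed level of all 12 tested genes was 123 and 118 CPM with EtOH and 155 and 159 CPM with 4-OHT. Itgax, also on macrophages, rose by 5.19 ± 0.13, while Flt3, Tcf4 (−1.47 ± 0.07) and Bst2 (−0.48 ± 0.09) fell. Over 8 libraries Xcr1 had 34 counts and Siglech 12. Genes of antigen presentation by MHC class II rose in 10 of 13 and fell in 2 (median 2.86). The invariant chain Cd74 went from 6.81 and 6.08 CPM to 101 and 109 CPM (4.03 ± 0.10), H2-Aa rose by 3.51 ± 0.32 and the costimulator Cd86 by 4.42 ± 0.15. Of 11 tested erythroid and megakaryocyte genes 4 passed only with 4-OHT libraries, and of the other 7 members 2 rose and 2 fell (median 0.15). All 11 tested genes summed to 456 and 498 CPM with EtOH and 631 and 592 CPM with 4-OHT, and the 4 globin genes had 0 counts. Vwf, also an endothelial gene, went up by more than the sum did, from 4.09 and 2.68 CPM to 258 and 232 CPM. Only 7 of 24 lymphoid genes passed the filter, 2 higher and 3 lower, summing to 18.8 and 18.6 CPM with EtOH and 116 and 124 CPM with 4-OHT. The interleukin-7 receptor gene Il7r made up most of the 4-OHT sum, going from 1.65 and 1.19 CPM to 107 and 116 CPM. Among 11 tested stromal genes 5 passed only with 4-OHT libraries, and of the other 6 members 4 rose and 1 fell (median 1.06). All 11 tested stromal genes summed to 239.9 and 256 CPM with EtOH and 339 and 365 CPM with 4-OHT, and Dcn and Lum had 0 counts. The part of other cells in the response was not tested.

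**Figure D3:**
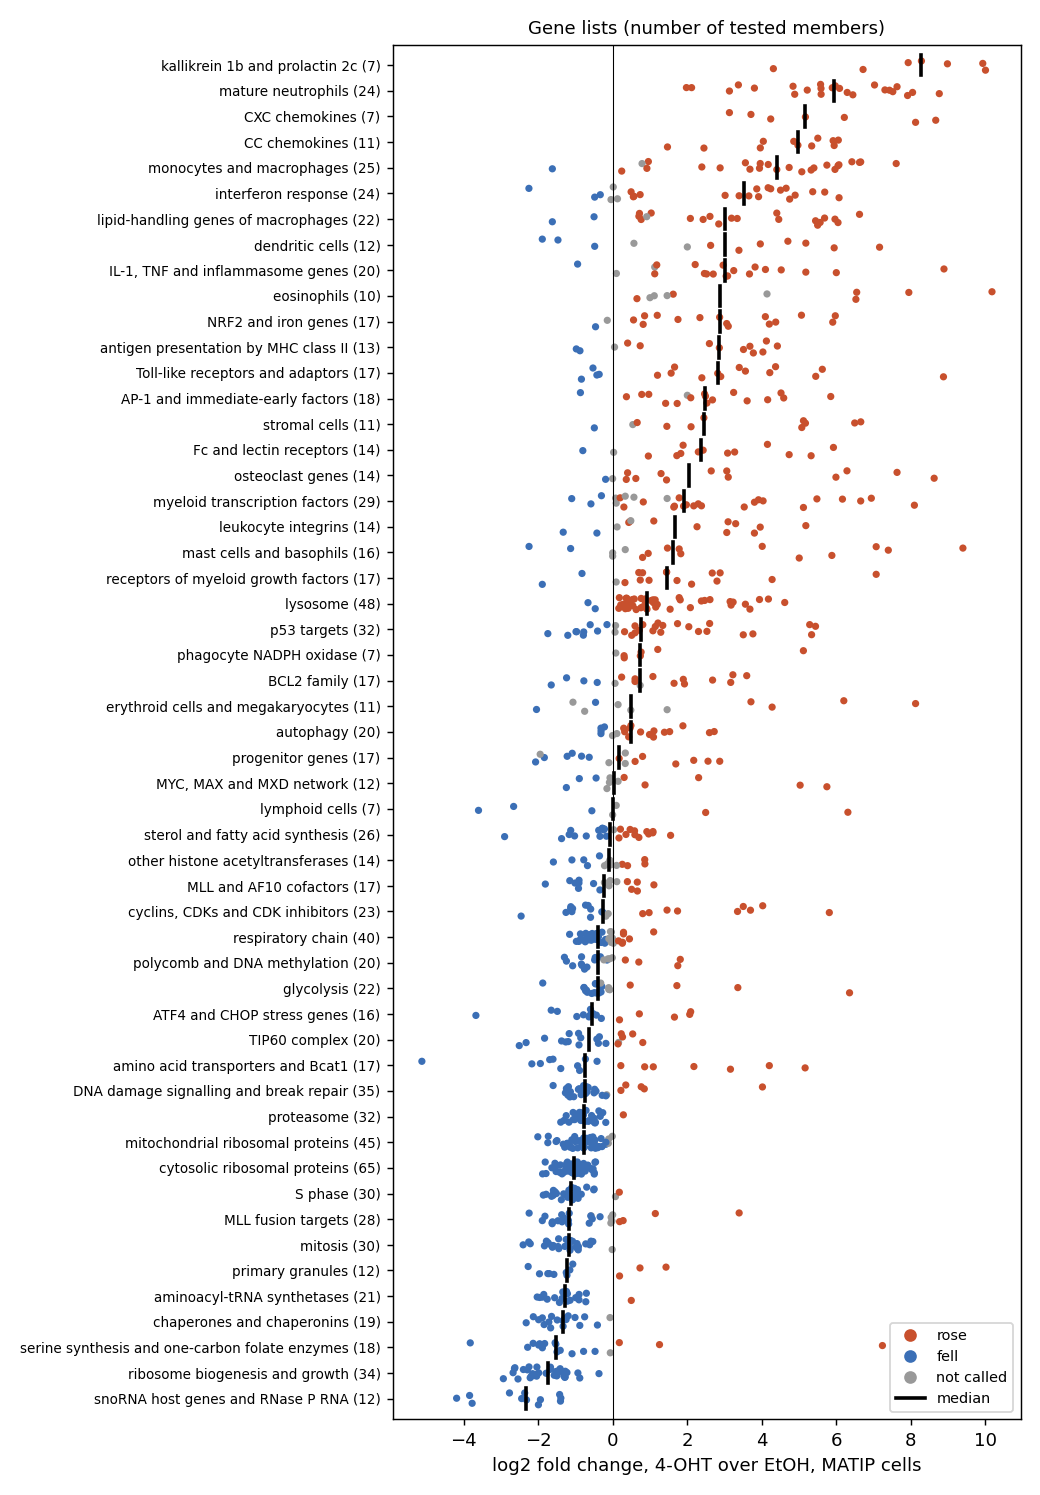
Log2 fold change of every tested member of 53 gene lists in MATIP cells, 1 point per gene, ordered by list median (black bars). Numbers of tested members stand in brackets. Kallikrein and prolactin, neutrophil, chemokine and macrophage lists lie at the top, and ribosome biogenesis and small nucleolar RNA host genes at the bottom. All 7 kallikrein and prolactin genes and 4 of 7 CXC chemokine genes passed the filter only with 4-OHT libraries, which favoured a rise. With EtOH counts of 0 set to 3 counts per group, the kallikrein and prolactin median is 4.85 in place of 8.29.

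Chemokine genes were higher with 4-OHT. Of 11 tested CC genes of 12 listed, 3 passed only with 4-OHT libraries and the other 8 rose (median 4.92). Of 12 CXC genes 7 were tested, 4 of them only with 4-OHT libraries, and the other 3, Cxcl2, Cxcl10 and Pf4, rose. Ccl6 went from 130.5 and 131 CPM to 7689 and 8119.6 CPM (5.92 ± 0.06), Ccl3 from 28.5 and 28.9 CPM to 463 and 485 CPM (4.04 ± 0.06) and the neutrophil attractant Cxcl2 from 0.435 and 1.11 CPM to 58 and 62.7 CPM (6.22 ± 0.19). Of 20 IL-1, TNF and inflammasome genes 3 passed only with 4-OHT libraries, and of the other 17 members 14 rose and Gsdmd fell (median 2.96). The IL-1 receptor antagonist Il1rn rose by 6.00 ± 0.07, Il1b by 3.67 ± 0.16, Tnf by 3.05 ± 0.12 and the NF-kappaB feedback genes Nfkbia and Nfkbiz by 2.96 ± 0.06 and 4.53 ± 0.20. Gsdmd, the pore protein of pyroptosis, fell by 0.94 on the log2 scale.

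Receptors for microbes and immune complexes rose as well. Toll-like receptor genes and adaptors, without 2 that passed only with 4-OHT libraries, rose in 11 of 15 and fell in 4 (median 2.39). Tlr2 rose by 3.56 ± 0.07, Tlr7 by 4.37 ± 0.12 and Tlr13 by 5.63 ± 0.10, while Tlr1 (−0.84 ± 0.19) and the adaptors Myd88 (−0.36 ± 0.07), Ticam1 (−0.53 ± 0.09) and Ticam2 (−0.42 ± 0.10) fell. Of 14 Fc and lectin receptors 12 rose and 1 fell (median 2.36), with Clec4n at 5.93 ± 0.08 and the inhibitory Fcgr2b at −0.80 ± 0.06. Integrins rose in 10 of 14 and fell in 2 (median 1.68). Itgam, the CD11b chain, rose by 3.96 ± 0.10 and its partner Itgb2 by 2.26 ± 0.07, while Itga4, which tethers progenitors to stroma, fell by 1.33 on the log2 scale.

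Interferon response genes were uneven. Of 24 tested members 6 passed only with 4-OHT libraries, and of the other 18 members 12 rose and 3 fell (median 0.65). Irf7 went from 0.478 and 0.603 CPM to 9.22 and 10.6 CPM (4.17 ± 0.24), Isg15 from 0 and 0.234 CPM to 3.67 and 3.43 CPM (4.75 ± 0.57) and Cxcl10 from 0.565 and 0.737 CPM to 13.1 and 12 CPM (4.24 ± 0.31). Summed over the list the level went from 254 and 258 CPM to 349 and 358 CPM. Irf9 was at 0.56 ± 0.13 and Bst2 at −0.48 ± 0.09, and the guanylate-binding protein Gbp3 fell by 2.25 on the log2 scale.

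Genes of DNA replication and mitosis fell. Of 30 S phase genes 28 fell and 1 rose, and their median was −1.12. The helicase subunits Mcm2 to Mcm7 all fell, with Mcm2 going from 362 and 354 CPM to 98.7 and 98.4 CPM (−1.86 ± 0.05) and Mcm7 from 369 and 376 CPM to 121 and 118 CPM (−1.64 ± 0.06). Thymidylate synthase Tyms fell by 1.55 and the sliding clamp Pcna by 0.50 on the log2 scale. The call of the single rise did not hold with library size alone or without either second replicate of MATIP cells. In the mitosis list 29 of 30 fell and the median was −1.18. Ube2c, of the anaphase-promoting complex pathway, went from 207 and 194 CPM to 38.4 and 37.3 CPM (−2.40 ± 0.07), Plk1 fell by 2.25, Ccnb1 by 1.83 and Cdk1 by 1.28 on the log2 scale. Mki67, a common marker of dividing cells, was the exception, at 454 and 465 CPM with EtOH and 468 and 443 CPM with 4-OHT. In MAflox cells the medians were −0.34 and −0.06, and the difference was lower in MATIP cells for 27 of the 30 S phase genes and 28 of the 30 mitosis genes.

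Regulators of the cycle moved both ways, 9 of 23 higher and 12 lower (median −0.26). Cdk4, the kinase that opens the cycle in response to growth factors, went from 421 and 422 CPM to 75.2 and 78.2 CPM (−2.46 ± 0.06), and Cdk6 and Cdk2 fell by 1.25 and 1.12 on the log2 scale. Some inhibitors of these kinases rose: Cdkn1a (p21) from 64.4 and 89.7 CPM to 252 and 265 CPM (1.74 ± 0.10), Cdkn2a by 3.35 ± 0.54 and Cdkn1c by 3.70 ± 0.48. Cdkn2c (p18), also an inhibitor, fell by 0.59. The cyclin Ccnd1 and the factor E2f2 also rose, by 3.51 ± 0.17 and 4.03 ± 0.10.

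Genes of DNA damage signalling and break repair, a process in which TIP60 acts, fell in 29 of 35 and rose in 5 (median −0.75). The kinase genes Atm and Atr fell by 0.83 and 0.70, and Parp1 by 1.27 on the log2 scale. The Ku subunits parted, with Xrcc6 at −1.60 ± 0.07 and Xrcc5 going from 1.33 and 1.62 CPM to 23.8 and 24.6 CPM (4.02 ± 0.17). Xrcc5 rose in MAflox cells too (3.50), and the difference did not pass the test. Of the 35 genes 20 fell and 7 rose in MAflox cells (median −0.38). For the list, the difference of responses was lower in MATIP cells for 15 genes and higher for 7.

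Genes that p53 can activate, in a list that also holds its own gene Trp53, rose in 21 of 32 and fell in 9 (median 0.76). Trp53 was among the falls, going from 203 and 194 CPM to 57.6 and 61.2 CPM (−1.74 ± 0.07). Trp53inp1 rose by 3.77 ± 0.09, Gdf15 by 5.45 ± 0.17, Plk2 by 5.29 ± 0.13, Perp by 5.34 ± 0.21 and the negative regulator Mdm2 by 1.35 ± 0.06. In the BCL2 family 11 of 17 rose and 4 fell (median 0.74). Bcl2l11 (BIM), a killer protein, went from 13.3 and 16.3 CPM to 186 and 174 CPM (3.60 ± 0.09). The protective Mcl1 went from 222 and 224 CPM to 839 and 859 CPM (1.93 ± 0.06), and protective Bcl2 fell by 1.65 on the log2 scale. Members of both kinds thus rose and fell.

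Genes of ribosome production fell together. All 34 tested genes of ribosome biogenesis and growth fell, with a median of −1.73 and 31 of them by at least 2-fold. Srm, spermidine synthase and a known MYC target, went from 373 and 346 CPM to 44.8 and 49.2 CPM (−2.93 ± 0.07), Pa2g4 from 888 and 809 CPM to 141 and 150.2 CPM (−2.54 ± 0.06) and nucleophosmin Npm1 from 2614 and 2346 CPM to 549 and 594 CPM (−2.12 ± 0.06). Polr1b, of RNA polymerase I (−2.40), and the pseudouridine synthase Dkc1 (−2.29) fell as well. In MAflox cells 33 of the 34 fell with a median of −0.90, and the difference was lower in MATIP cells for 25 and higher for 2.

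Genes of the ribosome itself fell in MATIP cells and mostly rose in MAflox cells. All 65 tested cytosolic ribosomal protein genes fell, between −1.88 and −0.46 on the log2 scale, with a median of −1.05. Their summed level went from 58278 and 54995 CPM to 27182 and 29843 CPM. In MAflox cells 56 of them rose and 1 fell, with a median of 0.38, and the difference was lower in MATIP cells for 64. Rpl3 was at 1603 and 1549.8 CPM with EtOH and 523 and 554 CPM with 4-OHT, with a difference between the lines of −1.76 ± 0.08, and Rpl13a had the largest fall of the list (−1.88). Of 45 mitochondrial ribosomal protein genes 42 fell and none rose (median −0.77). Ribosomal protein genes have many processed copies, and how shared reads were counted is not given.

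Small nucleolar RNAs guide the modification of ribosomal RNA, and many lie in introns of host genes. All 12 tested members of a list of such hosts and of the RNAs of RNase P and RNase MRP fell, with a median of −2.34. Snhg1 went from 67.1 and 64.8 CPM to 11.7 and 12.5 CPM (−2.44 ± 0.09) and Gas5 from 181 and 161 CPM to 42.6 and 43.4 CPM (−1.99 ± 0.07). Rpph1, the RNA of RNase P, went from 11.8 and 8.39 CPM to 0.640 and 0.750 CPM (−3.84 ± 0.37), and Rmrp, with 6 counts over the 4-OHT libraries, had −4.19 ± 0.64. In MAflox cells the median was −0.07, and the difference was lower in MATIP cells for all 12. It was −2.32 ± 0.12 for Snhg1, −1.96 ± 0.10 for Gas5 and −3.34 ± 0.48 for Rpph1. Genes of the annotation type snoRNA, a group chosen after values were seen, fell in 40 of 58 tested and rose in none, with a median of −1.95. Their summed level, low in all libraries, was 61.9 and 52.6 CPM with EtOH and 14.8 and 14.1 CPM with 4-OHT. Of the same 58 snoRNA genes 10 fell and 0 rose in MAflox cells (median −0.72). The difference was lower in MATIP cells for 20 of the 58 and higher for 0, against 33.6% and 28.3% of all tested genes. Counts per gene do not separate such short RNAs from reads of the host introns around them.

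The MYC network gave no single direction, with 5 of 12 tested genes higher, 3 lower and a median of 0.04. Myc went from 348 and 371 CPM to 443 and 448 CPM (0.31 ± 0.06). Mxd1, which competes with MYC for MAX, went from 21.6 and 31.3 CPM to 865 and 881 CPM (5.03 ± 0.11), and Max fell by 1.24 on the log2 scale. The responses of Mxd1 in MAflox cells (3.29) and of Myc (−0.67) differed from these by 1.74 ± 0.14 and 0.98 ± 0.09.

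Other machinery of protein synthesis and folding fell with the ribosome. Aminoacyl-tRNA synthetase genes fell in 20 of 21 (median −1.27), Vars by 2.03 and Iars by 1.96, and Fars2, the mitochondrial enzyme, rose by 0.50 ± 0.09. Chaperone and chaperonin genes fell in 18 of 19 with none higher (median −1.34). Hsp90ab1 went from 5452 and 5366 CPM to 1682 and 1729 CPM (−1.67 ± 0.05), and the mitochondrial chaperonins Hspd1 and Hspe1 fell by 2.13 and 2.32. Proteasome genes fell in 31 of 32 (median −0.76), and Psmb6 rose by 0.29 ± 0.06. The proteasome median in MAflox cells was 0.05, and the difference was lower in MATIP cells for 27 of the 32.

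Serine and one-carbon enzymes, which feed nucleotide synthesis, fell in 14 of 18 and rose in 3 (median −1.51). Phgdh, the first enzyme of serine synthesis, went from 428 and 434 CPM to 83 and 94.2 CPM (−2.28 ± 0.06), Shmt2 fell by 1.99 and Aldh1l2 by 3.82 on the log2 scale. Amino acid transporter genes and Bcat1 parted, 7 of 17 higher and 10 lower. The cystine transporter Slc7a11 went from 24.8 and 26.6 CPM to 491 and 458 CPM (4.21 ± 0.08) and the peptide transporter Slc15a3 rose by 5.17 ± 0.12, while the neutral amino acid transporters Slc1a4 and Slc1a5 fell by 2.17 and 1.39. Genes of the ATF4 and CHOP stress response fell in 11 of 16 and rose in 5 (median −0.56). Ddit3 (CHOP) rose by 2.09 ± 0.13, and its inducer Atf4 fell by 0.60 on the log2 scale, as did Asns, by 0.96.

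Iron storage and antioxidant genes, many of them targets of NRF2, rose in 15 of 17 and 1 fell (median 2.87). Ftl1 went from 3030.3 and 2822 CPM to 24691 and 25622 CPM (3.10 ± 0.06) and Fth1 from 825 and 750.5 CPM to 15828 and 16917 CPM (4.38 ± 0.07). The quinone reductase Nqo1 rose by 5.07 ± 0.09, haem oxygenase Hmox1 by 4.10 ± 0.10, peroxiredoxin Prdx1 by 2.34 ± 0.06 and the phagosomal metal transporter Slc11a1 by 5.91 ± 0.12. Tfrc, which imports iron, fell by 0.46 on the log2 scale. The difference from MAflox cells was higher for 14 of the 17 and lower for 3, with 2.77 ± 0.09 for Fth1, 2.47 ± 0.09 for Prdx1 and 2.94 ± 0.11 for Nqo1. Ferritin genes have processed copies, so their single values are uncertain.

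Energy metabolism was mixed. Glycolysis genes fell in 14 of 22 and rose in 4 (median −0.40), with triose phosphate isomerase Tpi1 at −1.88 ± 0.08 and the glucose transporter Slc2a3 at 3.36 ± 0.14. In MAflox cells 13 of the 22 rose (median 0.47), and the difference was lower in MATIP cells for 16 and higher for 0. Respiratory chain genes fell in 25 of 40 and rose in 7 (median −0.39), with Atp5b at −1.16 ± 0.05. Genes of sterol and fatty acid synthesis gave no single direction, with 12 of 26 higher, 13 lower and a median of −0.07. The sterol genes Hmgcs1 (1.56 ± 0.06), Msmo1 (1.08 ± 0.06) and Cyp51 (0.97 ± 0.06) rose, but mevalonate kinase Mvk fell (−0.71 ± 0.09), as did the fatty acid genes Elovl6 (−2.90 ± 0.07), Scd1 (−1.37 ± 0.13), Fasn (−1.17 ± 0.09) and Acaca (−1.02 ± 0.07).

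Polycomb and DNA methylation genes fell in 12 of 20 and rose in 4 (median −0.40). The methyltransferase Ezh2, of the repressive complex PRC2, fell from 129 and 118 CPM to 49.6 and 50.9 CPM (−1.30 ± 0.06) and its relative Ezh1 rose by 0.70 ± 0.08. The de novo DNA methyltransferases parted, with Dnmt3a at 1.75 ± 0.08 and Dnmt3b at −1.24 ± 0.11.

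The responses of both lines to 4-OHT were set against each other by the test of their difference. Of 13722 genes 8491 (61.9%) differed, 3883 higher in MATIP cells (28.3%) and 4608 lower (33.6%). Of the 7352 genes called in both lines, 5695 moved the same way and 1657 the opposite way. In 708 of these the gene rose in MATIP and fell in MAflox cells, and in 949 it fell in MATIP and rose in MAflox cells. The largest differences in favour of MATIP cells with a mean of at least 5 CPM were those of Prl2c5 (7.61 ± 1.18), Klk1b11 (7.32 ± 0.58), Nr4a3 (7.02 ± 0.95), Fam181b (6.43 ± 0.92), the orphan receptor Gprc5b (6.40 ± 0.66) and the latrophilin Adgrl2 (6.23 ± 0.19). Nr4a3 was at 0.130 and 0.0670 CPM with EtOH and 27.4 and 26.1 CPM with 4-OHT in MATIP cells, and its response in MAflox cells was 1.08. The largest in the other direction were Camp (−5.56 ± 0.12), Fcnb (−5.30 ± 0.25), Smim6 (−5.25 ± 0.48), Fbxo17 (−5.22 ± 0.29), Ceacam10 (−4.97 ± 0.34) and Ankrd22 (−4.70 ± 0.72). Camp, Fcnb, Ceacam10 and Ankrd22 rose in both lines and by less in MATIP cells, where Ceacam10 rose by 4.08 ± 0.16 and Ankrd22 by 6.03 ± 0.20. Fbxo17 fell in MATIP cells (−0.99 ± 0.18) and rose in MAflox cells (4.23), and Smim6, at −0.62 ± 0.42 in MATIP cells, did not pass the test there. The lines differ in genotype, so the cause of a difference between them was not tested.

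**Figure D4:**
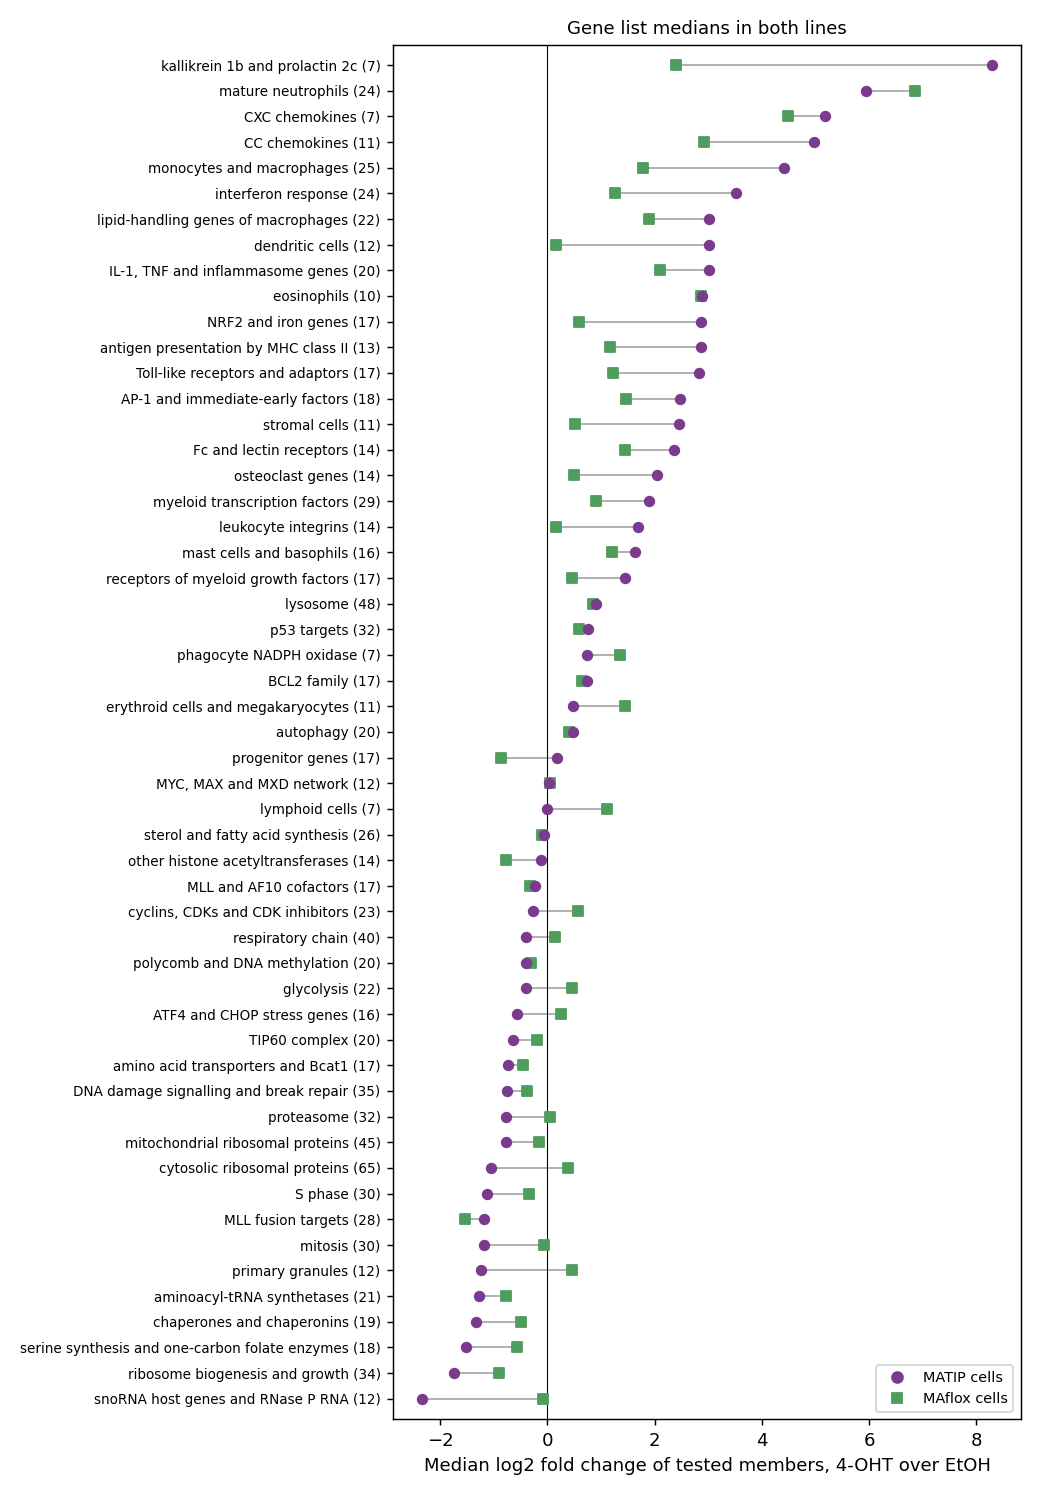
Median log2 fold change of the tested members of each gene list in MATIP cells (purple circles) and MAflox cells (green squares), ordered as in the plot of list members. Cytosolic ribosomal protein genes lie at −1.05 in MATIP and 0.38 in MAflox cells, and primary granule genes at −1.24 and 0.46.

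Groups whose medians lay on opposite sides of 0 in the 2 lines included the cytosolic ribosomal proteins (−1.05 in MATIP and 0.38 in MAflox cells), primary granule genes (−1.24 and 0.46) and the respiratory chain (−0.39 and 0.14, with 27 of 40 differences lower in MATIP cells). Groups in which MATIP cells were further from 0 in the same direction included monocyte and macrophage genes (4.41 against 1.78, higher in MATIP cells for 22 of 25) and iron and NRF2 genes (2.87 against 0.58). Mature neutrophil genes were the reverse (5.94 against 6.86). The list of snoRNA hosts had a median of −2.34 in MATIP cells and of −0.07 in MAflox cells, where 4 of its 12 members rose and 2 fell. Lysosomal genes had close medians (0.91 and 0.86), but the difference was higher for 26 of 48 members and lower for 12. It was 3.36 ± 0.09 for Psap and 2.26 ± 0.07 for Ctsd.

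Kallikrein 1b and prolactin 2c genes, families of glandular and placental proteins with near-identical copies in the genome, were almost silent with EtOH. Of 19 listed genes 7 were tested, all of them only with 4-OHT libraries, so the filter favoured a rise and no count is read from it. Their summed level was 0.239 and 0.536 CPM in the EtOH libraries and 359.9 and 365 CPM in the 4-OHT libraries, nearly all of it from Klk1b11, at 208 and 207 CPM, and Prl2c5, at 148 and 153 CPM. Prl2c2 had 0 EtOH counts and 76 with 4-OHT, at least 28.8-fold higher with 0 set to 3 counts per group, and Klk1b9 had 0 and 120 counts, at least 45.5-fold higher. The counting of reads shared between copies is not stated, and the value of any 1 member is uncertain.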

How the data were processed

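RNA sequencing counts per gene symbol were used as deposited by the authors, with 1 column per library and no normalization. The submitters' processing notes name HISAT2 2.1.0, featureCounts 1.6.4, Trimmomatic 0.38.0 and DESeq2, and the build mm10. For the gene annotation, the strand setting and the treatment of reads with several matches, the sources used here give nothing. A further 23 empty columns were dropped, and the authors' table of fold changes was not used.

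Of 24421 symbols 17831 had a count and 13722 passed filterByExpr (minimum count 10, minimum total 15). These were fitted with edgeR 4.0.16 in R 4.3.3 (TMM factors, quasi-likelihood, all 8 libraries, 1 coefficient per group). Both the response and its difference between lines were tested in that fit, with Benjamini-Hochberg adjustment over all tested genes and a threshold of 0.05. The code was tested on simulated data. Alternatives were DESeq2 1.42.0, other scalings and filters, MATIP libraries only, a replicate block, and leaving out each library.

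The members and the 53 gene lists were chosen with earlier results of these data known, as was the split of lists by passage of the filter without 4-OHT libraries, and 8 listed symbols had no match. Genes named by rule were those of the targeted locus, the fusion and its main targets (Hoxa9, Meis1, Kat5, Mllt10, Kmt2a), the 12 largest called rises and falls with separated libraries and a mean of at least 5 CPM, without predicted genes, 2 called members per list and direction with the smallest p, the member of each list with the highest CPM, the 10 largest shares of counts per group, and the 6 largest differences per direction. Other genes in the text were chosen after their values were seen, and some named genes are not reported here. Of 235 genes named by rule 234 were placed in GENCODE M21, and 65 share exon bases with a gene on the opposite strand. Without a stated strand setting, reads of such pairs cannot be told apart. Counts of 0 were given a floor of 3 counts over the group. Precision rests on library totals, 44122439 to 57312490 counts in MATIP cells, and on the spread between the 2 libraries of each group.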

Additional observations from a re-analysis of the deposited data

Results flagged for a closer look

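For the genes below the response of MATIP cells differed from that of MAflox cells by the test of the difference itself (edgeR quasi-likelihood, adjusted p under 0.05). Each value is the log2 response of MATIP cells minus that of MAflox cells. Among the genes of the genotype and of the fusion, the difference was −2.82 for Kat5, 1.53 for Kmt2a, −0.56 for Mllt10, −0.23 for Hoxa9, 1.61 for Meis1, −1.60 for Myb and 2.63 for Zeb2. Kmt2a itself fell in MAflox cells, by 1.13 on the log2 scale.

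Genes with a more positive response in MATIP cells included Prl2c5 (7.61), Klk1b11 (7.32), Nr4a3 (7.02), Fam181b (6.43), Gprc5b (6.40) and Adgrl2 (6.23). Lower in size were those of Mmp8 (3.88), Psap (3.36), Nqo1 (2.94), Fth1 (2.77), Prdx1 (2.47), Ctsd (2.26), Chil3 (1.97), Mxd1 (1.74) and Myc (0.98).

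Genes with a more negative response in MATIP cells included the granule and granulocyte genes Camp (−5.56), Fcnb (−5.30), Ceacam10 (−4.97), Prss57 (−3.16), S100a9 (−2.71), Elane (−2.45), Cebpe (−2.65) and Gfi1 (−2.01). The RNA and ribosome genes were Rpph1 (−3.34), Snhg1 (−2.32), Gas5 (−1.96) and Rpl3 (−1.76). The others were Smim6 (−5.25), Fbxo17 (−5.22), Ankrd22 (−4.70), St8sia5 (−3.89) and Fgd2 (−3.48).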

How the results depend on the processing

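With 2 libraries a group, the counts of genes kept within 1.5 times the reported ones in every setting run. Of the MATIP response, 4562 genes rose and 5996 fell with library size alone, which moved the median of all genes by −0.13 on the log2 scale, and 5208 rose and 4775 fell in DESeq2. No gene called in both the reported fit and another setting changed direction. Leaving out 1 library gave 4793 to 5345 rises and 4746 to 5290 falls. Of 308 single-gene values in the text 13 changed call or sign. Genes that were not called and lay close to 0 changed sign: Acp5 in MATIP cells was at 0.0717 with DESeq2 size factors, 0.0685 in DESeq2, 0.0270 with no filter, 0.0558 with the filter of 1 CPM, 0.0234 with MATIP libraries only and −0.140 to 0.192 without single libraries, and Mki67 in MATIP cells was at 0.0604, 0.0604, 0.0142, 0.0444, 0.0119 and −0.0313 to 0.0650 in the same order. With library size alone Ep300 was at −0.0273 and Cebpe at −0.0387, and Cebpe lay between −0.00539 and 0.209 without single libraries. The cause was not tested. Of 106 counts of list members 15 moved by over 1.5 times in some setting, most of them counts of 5 or fewer. Same-numbered replicates did not deviate together (correlation −0.08 in MATIP and 0.00 in MAflox cells). That cannot exclude that the numbers pair the samples, and the labels do not say. With the replicate block 4947 genes rose and 5206 fell, and Kat5 was at −2.32.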

Other observations

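Some genes with large changes belong to none of the gene lists. Lyz1, the intestinal lysozyme and a close copy of Lyz2, went from 0.0652 and 0.0502 CPM to 25.4 and 32.6 CPM (8.93 ± 0.28). Its rise rests on 6 EtOH counts, and how reads shared with Lyz2 were counted is not given, so its value is uncertain. Cldn11, a tight junction claudin, fell from 8.55 and 10.1 CPM to 0.616 and 1.07 CPM (−3.44 ± 0.22), and Ccdc116 from 12.4 and 11.7 CPM to 1.02 and 0.927 CPM (−3.63 ± 0.19). The groups did not overlap for any of these 3 genes.

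By annotation type, 4781 of 12518 tested protein-coding genes rose in MATIP cells (38.2%) and 4935 fell (39.4%). Of 152 tested lincRNA genes 60 rose and 36 fell, and of 148 antisense genes 44 rose and 19 fell. Genes that rose in MATIP cells and fell in MAflox cells, both at least 2-fold, numbered 106, and 39 went the other way.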
